A study of Homo sapiens with 14 samples.

Results

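The effect of the delivery method was examined in Kasumi-1 cells that received the same control siRNA by 2 routes. Kasumi-1, an established human cell line of acute myeloid leukaemia, expresses the fusion gene AML1-ETO (also named RUNX1-RUNX1T1). The members were the arrays labelled with the luciferase siRNA: 2 from Amaxa nucleofection (replicates 1 and 2) and 3 from the Biorad siLentFect lipid reagent (replicates 1, 2 and 3), 5 of the 14 arrays in all. The nucleofected cells were given siRNA at 1.5 µM and the lipid-treated cells at 240 nM, so that the delivery method and the siRNA dose cannot be told apart. Both groups were grown in RPMI medium with 10% fetal calf serum, and RNA was taken at 96 h.

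The study as a whole compared an siRNA against the fusion transcript with the luciferase control, each delivered by both methods. Its other arrays were 6 of the AML1-ETO siRNA (3 by nucleofection at 1.5 µM, 3 by lipid at 240 nM), 1 of nucleofection without siRNA and 2 of untransfected cells (replicates 1 and 3). The 14 arrays hold no replicate 3 of luciferase nucleofection and no replicate 2 of the untransfected cells. All cells were the same line and all were labelled as 96 h. Each array was deposited as MAS5 signal, a linear intensity for each of 22283 probe sets. The labels do not say that replicates came from separate cultures, so the p-values speak only of how far these arrays vary among themselves, and that variation may be technical.

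Nucleofection uses an electric pulse in a cell-type-specific buffer to open the plasma membrane and the nuclear envelope for a short time, and nucleic acid enters through the openings. A cationic lipid reagent instead packs the siRNA into particles that cells take up largely by endocytosis, after which part of the cargo leaves the endosome. In both cases the antisense strand is loaded into the RNA-induced silencing complex, which uses bases 2 to 8 of that strand, the seed, to find partly matched transcripts. Firefly luciferase has no counterpart in human cells, which is why an siRNA against it serves as a control.

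The siRNA sequences are shown because the same molecule, with the same seed, was used in both groups compared. The antisense strand is given with the seed in capitals, without the overhangs, followed by the reverse complement of the sense strand for comparison.
Luciferase siRNA, sense: cguacgcggaauacuucga
Luciferase siRNA, antisense as labelled: uCGAAGUAuucggcguacg
Reverse complement of the sense strand: uCGAAGUAuuccgcguacg
Counted from the 5′ end of the antisense strand, the labelled strand differed from the reverse complement at C12G, with 18 of 19 bases matching. The difference lies outside the seed.

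The 5 arrays separated by delivery method. Across all probe sets the correlation was 0.961 between the nucleofection arrays, 0.974 to 0.979 among the lipid arrays and 0.946 to 0.951 between the methods. Control probe sets also differed. The 18S ribosomal RNA signal was 1111 and 203 with nucleofection and 54.8, 47.9 and 13.3 with lipid, and 28S was 824 and 219.6 against 97.2, 77.6 and 37.6. The Alu repeat signal was 12858 and 13328 against 8566, 7803 and 6822. The log2 ratio of the 3′ to the 5′ GAPDH probe sets, a measure of how complete the labelled transcripts are, was 0.25 and 0.03 against -0.26, -0.30 and -0.26. For each of these measures the nucleofection arrays lay above the lipid arrays. The exact two-sided permutation test gave p = 0.1, the smallest that 2 arrays against 3 allow (adjusted p = 0.18 over 9 measures). The same ratio for ACTB overlapped between the methods, at 0.838 and 0.375 against 0.367, 0.378 and 0.303 (permutation test, p = 0.2, adjusted p = 0.257). The array nucleofected without siRNA had an 18S signal of 1515 and an Alu signal of 13348, while the untransfected arrays ranged from 7524 to 8963 for Alu.

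**Figure D1:**
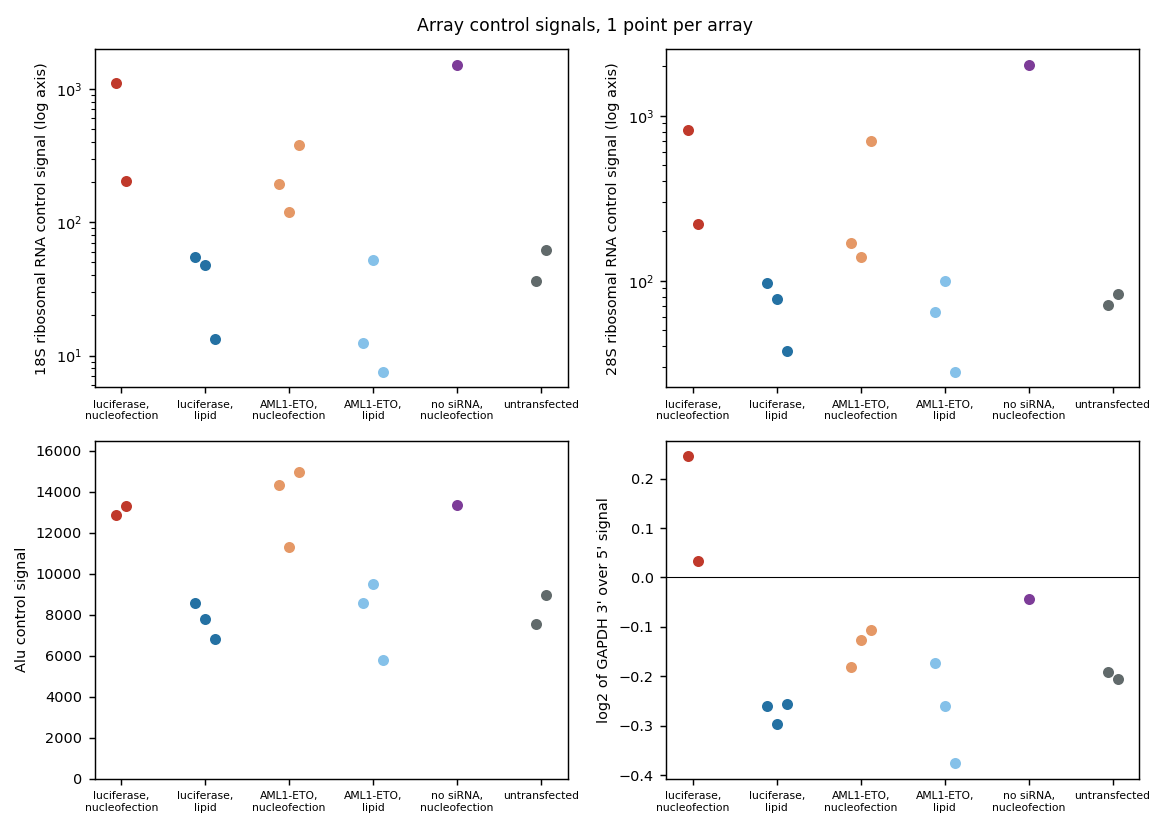
Signals of the 18S and 28S (log axes) and Alu (linear axis) control probe sets and the log2 ratio of 3′ to 5′ GAPDH probe sets. All 14 arrays are shown by group, and each point is 1 array. The luciferase nucleofection arrays lie above the luciferase lipid arrays in every panel, with 18S at 1111 and 203 against 13.3 to 54.8.

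The identity of the cells was checked with markers of the line. All 4 RUNX1T1 probe sets, which report the ETO portion of the fusion transcript, gave differences that did not pass the test. Their differences were -0.01, 0.34, -0.38 and -0.60, the last with adjusted p = 0.0832. The arrays of the 2 methods overlapped only at the first of these. At the others both nucleofection arrays lay above all lipid arrays (0.34) or below them (-0.38 and -0.60). The brightest gave 644 and 763 with nucleofection and 539.7, 560.3 and 567 with lipid (log2 difference 0.34, adjusted p = 0.222). KIT, the stem cell factor receptor, had signals of 1901 and 2153 against 1996, 2030.5 and 2102, and the groups overlapped. Both probe sets of myeloperoxidase (MPO) were bright on all 5 arrays, at 5700.5 and 6143 against 6632, 5778 and 5693 for the first of them. ANPEP stayed under the floor of 20 on all 14 arrays, and CD33 had no probe set with a single symbol. Other markers of the line did differ: SPI1 was lower (log2 -1.04) and a PTPRC probe set higher (0.99), both called. CD34 (-0.62) and the brighter MYB probe set (-0.49) did not pass, but for each both nucleofection arrays lay below all lipid arrays. MYB gave 1015 and 1212 against 1658, 1543 and 1472. The dimmer MYB probe set (-0.06) and the tested HLA-DRA probe set (-0.08) lay near or under the floor.

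Signals were set to at least 20 before log2, and differences are nucleofection minus lipid. Among 15938 probe sets tested, 1341 differed between the methods (8.41%; limma, Benjamini-Hochberg adjusted p under 0.05). Of these, 352 were higher after nucleofection (2.21%) and 989 lower (6.21%). The median log2 difference was 0.79 among the higher and -0.83 among the lower probe sets, beside -0.06 over all tested. In all, 413 of the 1341 passed 2-fold, 97 of them higher and 316 lower. The count fell to between 566 and 817 when 1 of the 5 arrays was left out: 817 without nucleofection replicate 1, 811 without nucleofection replicate 2, and 725, 685 and 566 without lipid replicates 1, 2 and 3. The arrays of the 2 methods did not overlap at any of the 1341, and 42.5% of all probe sets tested had no overlap.

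The balance of directions depended on the scaling of the arrays. As deposited, the 100 brightest probe sets held 26.8% and 26.2% of the total signal with nucleofection and 21.9%, 20.2% and 19.1% with lipid. The bearing of that share on the balance was not tested. The share of higher probe sets among those called was 26.2% as deposited, 45.4% of 997 after quantile normalization and 59.1% of 1152 when arrays were centred on their median bright probe set. Centring moved the median over all probe sets by 0.18, to 0.12. The control signals bear on the count as well: with 18S, Alu or the GAPDH ratio as a covariate, no probe set passed (limma), although 1961, 2100 and 1652 had an unadjusted p under 0.05. These 3 measures did not overlap between the methods on the 5 arrays, so a refit with any of them cannot tell it apart from delivery.

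When probe sets were ranked by mean signal and split into 5 bins of about 3188, the brightest bin held the most lower calls. There, 471 were lower and 43 higher (14.8% lower; median difference -0.21). In the dimmest bin, 3 were lower and 115 higher, with a median of 0.04. Mean signals in that bin were 20.0 to 23.5, next to the floor of 20, which leaves almost no room for a fall there. The 3 bins between held 74 lower and 115 higher, 184 lower and 47 higher, and 257 lower and 32 higher, in order of rising brightness.

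The 12 genes with the largest decrease and the 12 with the largest increase among those called are described next, by 1 probe set each. A probe set without a single gene symbol fell further than any of them and is not named. Fold changes are on the scale with the floor and understate the change of dim genes. In bulk RNA, fewer cells of a type and less RNA per cell cannot be told apart.

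Among genes lower after nucleofection, FBN2, which encodes the extracellular matrix protein fibrillin 2, had signals of 26.6 and 26.9 with nucleofection and 144, 118 and 119.8 with lipid. The groups lay far apart, and the difference was 4.73-fold (log2 -2.24, SE 0.16, adjusted p = 0.000477). AZU1, an antimicrobial protein of azurophil granules, gave 289 and 252 against 1456, 1079.5 and 1166. Both nucleofection arrays lay well under the lowest lipid array, and the fall was 4.53-fold (log2 -2.18, SE 0.19, adjusted p = 0.000613). SPINT2, a membrane inhibitor of serine proteases, gave 107 and 71.9 against 397, 319 and 372, a 4.12-fold fall with no overlap (adjusted p = 0.000675). CFD, complement factor D, gave 68.6 and 42.2 against 239.6, 199.6 and 195 (3.92-fold, adjusted p = 0.00133). MRPL35, a protein of the large mitochondrial ribosomal subunit, gave 8.31 and 23.7 against 98.6, 113 and 149 (5.45-fold, adjusted p = 0.00504). 1 of the 2 nucleofection values of MRPL35 was under the floor, while all 3 lipid arrays were well above it.

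SAT1 and PIK3CG were under the floor on both nucleofection arrays, so their folds are lower bounds. SAT1, the acetyltransferase that starts polyamine breakdown, gave 5.62 and 6.26 against 83.5, 79.9 and 106, at least 4.46-fold lower (adjusted p = 0.000498). Its 2 further probe sets fell as well (log2 -1.28 and -1.54). PIK3CG, the catalytic gamma subunit of phosphoinositide 3-kinase, gave 17.0 and 10.8 against 97.4, 86.2 and 112, at least 4.89-fold lower (adjusted p = 0.00411). A second PIK3CG probe set had a difference of -0.08 that did not pass. CD24, a small surface glycoprotein, gave 53.6 and 55.9 against 211, 276 and 276 (4.61-fold lower, adjusted p = 0.000863), with no overlap. Of its 5 other probe sets, 3 passed in the same direction (log2 -1.01, -1.51 and -2.02), and the others gave -0.89 and -0.40.

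The 4 remaining named genes on the lower side differed by similar amounts. EPHX1, microsomal epoxide hydrolase, gave 29.7 and 20.0 against 102, 74.5 and 113 (3.89-fold, adjusted p = 0.00612). IFT122, a component of intraflagellar transport, gave 35.9 and 32.1 against 157, 127 and 130.4 (4.04-fold, adjusted p = 0.00178). EXOC7, a subunit of the exocyst, and PRRC2B were 4.14-fold and 4.52-fold lower (adjusted p = 0.0048 and 0.00616). The nucleofection arrays of PRRC2B stood apart from each other, at 88.6 and 27.3 against 213 to 236 with lipid. For IFT122 and PRRC2B a further probe set did not pass (0.12 and -0.09), and the other EXOC7 probe sets gave -0.59, which passed, and 0.21, which did not.

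Among genes higher after nucleofection, RAD23B, a partner of the XPC damage-recognition factor, gave 184 and 168 against 47.5, 45.4 and 47.4. The lipid values were almost equal and all far below the nucleofection values, and the rise was 3.76-fold (log2 1.91, SE 0.15, adjusted p = 0.000477). TOP1, DNA topoisomerase I, gave 245 and 377 against 91.9, 96.5 and 96.0 (3.20-fold, adjusted p = 0.00655). RC3H1 (roquin), which promotes decay of cytokine mRNAs, gave 101 and 99.0 against 16.6, 24.7 and 37.8 (3.76-fold, adjusted p = 0.00382). RAD23B and TOP1 each had another probe set that did not pass (0.04 and 0.50), so the rise held for 1 probe set of each gene.

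Ribosomal protein genes RPL37A, RPL38 and RPS10 were also among the 12 highest. RPL37A gave 1681 and 1122 against 266, 281 and 354 (4.61-fold, adjusted p = 0.00481). RPL38 gave 2644 and 1473 against 679, 786 and 496 (3.07-fold, adjusted p = 0.021), and RPS10 gave 548 and 203 against 86.1, 138 and 88.4 (3.28-fold, adjusted p = 0.0289). The 2 nucleofection arrays of each differed widely but stayed above all lipid arrays. Of the other probe sets of these genes, 1 for RPL37A (0.93) and 1 for RPL38 (1.35) passed, the second of each gave 0.42 and 0.38 without passing, and none of the 3 for RPS10 did (0.45 to 0.52). Ribosomal protein genes have many processed pseudogenes, and signals of near-identical copies may share probes.

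The transcription factor USF2 gave 159 and 165 against 35.0, 26 and 69.5 (4.06-fold, adjusted p = 0.00616), and 1 of its 2 other probe sets passed too (1.90, beside 0.08). BATF3, a basic leucine zipper factor, and the drug-metabolising enzyme CYP2D6 were higher from dim lipid values (3.82-fold and 3.21-fold; adjusted p = 0.03 and 0.0211). CD5, KLC2 and the kinase FGR were under the floor on all lipid arrays, and rose by at least 3.07-fold, 2.97-fold and 3.17-fold (adjusted p = 0.000647, 0.0036 and 0.0249). Signals of CD5, a receptor of T cells and some B cells, were 64.2 and 58.8 against 7.65, 16.2 and 9.97. FGR gave 70.1 and 57.3 against 6.38, 6.35 and 5.65, while the array nucleofected without siRNA was at 6.93. Of the 24 named genes, 14 kept their call under every alternative other than the 18S, Alu and GAPDH covariates, under which all 24 lost it. None reversed. Under all 3 covariates 20 of the 24 kept a log2 difference past 1, the exceptions being CYP2D6, FGR, RPL38 and RPS10. AZU1 ranged from -2.56 to -1.94 under them and SPINT2 from -2.73 to -2.05, while FGR ranged from 0.58 to 0.87.

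**Figure D2:**
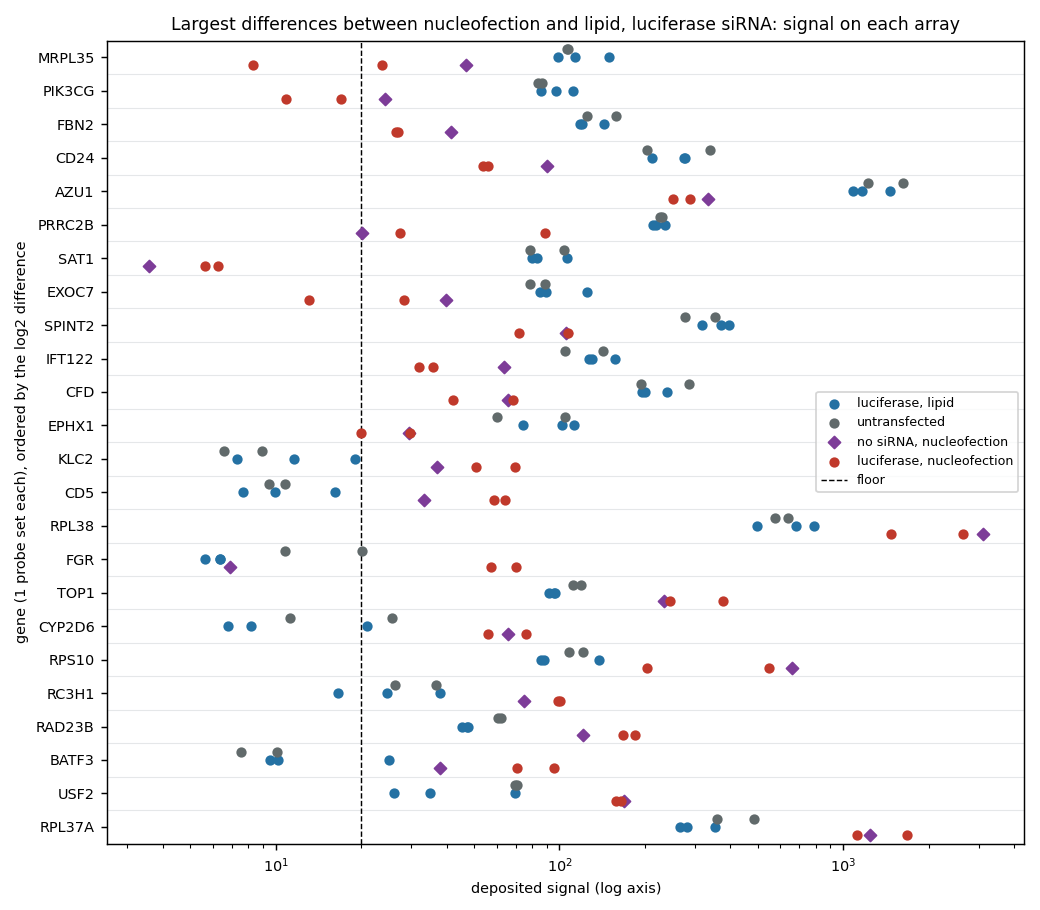
MAS5 signal (log axis) of the 24 named genes on the luciferase lipid, untransfected, no-siRNA nucleofection and luciferase nucleofection arrays; each point is 1 array and the dotted line is the floor of 20. For FBN2 the nucleofection arrays lie at 26.6 and 26.9 and the lipid arrays at 118 to 144, and for RAD23B at 168 and 184 against 45.4 to 47.5.

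Gene groups were described with 42 lists, each gene by its probe set of highest mean signal. Over all 9453 genes with such a probe set, 7.82% were called, 5.89% lower and 1.93% higher, and the median difference was -0.06. Lower calls were more frequent among bright probe sets, at 14.8% in the brightest bin, and the lists were not matched for brightness. The part of brightness in the list counts was not tested. The lists were drawn up with earlier results of these arrays known and hold genes those results had named, among them FBN2, SPINT2, CFD, CTSG, SRGN, CD24, TCIRG1, EGFL7, SLC39A4 and EPHX1. Their counts are therefore not independent evidence of a direction. In each list the 4 called genes with the smallest p were taken first, and any further member named was chosen after its values were seen.

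Genes of myeloid granule proteins were lower after nucleofection in 9 of 15 tested members, with none higher, and the list's median was -0.63. These proteases and matrix proteins are made in promyelocytes and stored for release by neutrophils. Signals of CTSG (cathepsin G) were 419 and 423 against 1225, 1265 and 1114, and the groups did not overlap (log2 -1.51, SE 0.16, adjusted p = 0.0012). PRTN3 (proteinase 3) gave 1283 and 1577 against 3401, 2892 and 2549 (log2 -1.04, adjusted p = 0.00577). AZU1 and CFD were the others with the smallest p. Further members that fell were SRGN (-1.11), CST7 (-1.09), ELANE (-0.75), CD63 (-0.63) and CTSC (-0.59), while MPO, given above, did not pass. In 12 of the 15 members both nucleofection arrays lay below all lipid arrays, against 27.6% of all probe sets tested. Quantile normalization left 8 lower members and centring 6, with medians of -0.42 and -0.45. Without nucleofection replicate 1 the count was 5, and from the 5 luciferase arrays alone it was 3 of 14.

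Genes of lysosomal enzymes and membrane proteins were lower in 9 of 33 members, with none higher and a median of -0.41. TCIRG1, a subunit of the vacuolar proton pump, gave 19.3 and 23.2 against 64.5, 66.9 and 64.1, a clear gap (log2 -1.60, adjusted p = 0.000863). NPC2, which carries cholesterol inside the lysosome, gave 294 and 254 against 553, 503 and 537 (log2 -0.96, adjusted p = 0.00279). LAMP2, a major lysosomal membrane protein, gave 104 and 102 against 167, 173 and 182, and TPP1, a lysosomal peptidase, 166 and 193 against 315, 336 and 378. Both fell (log2 -0.76 and -0.93; adjusted p = 0.00691 and 0.00945). The glycosidases NEU1 (-1.59), FUCA1 (-1.17), HEXA (-0.99), GAA (-0.76) and MANBA (-0.61) fell as well. In 25 of the 33 members the nucleofection arrays lay below all lipid arrays, against 27.6% of all probe sets tested. Both other scalings left 7 lower members, and without nucleofection replicate 1 or 2 the count was 5 or 6. The 5 luciferase arrays alone gave 4 lower members.

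Endocytic genes were lower in 4 of 27 members (14.8%, median -0.22), beside 14.8% of probe sets in the brightest bin. The lower members included RAB5B (log2 -0.75), the clathrin adaptor subunit AP2M1 (-0.61) and the recycling GTPase RAB11A (-0.61). The list gave 2 lower without nucleofection replicate 1 or 2 or lipid replicate 2. Under other scalings the calls were fewer, with 1 lower and 1 higher member after quantile normalization (median 0.03) and 0 lower and 1 higher after centring. Of 21 genes of membrane repair, 3 fell: the calpain subunits CAPNS1 (-1.09) and CAPN2 (-0.86) and the ESCRT protein CHMP2B (-0.76).

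Secreted and extracellular matrix genes had the highest number of calls among the lists, with 15 of 39 members lower and none higher. The list's median was -0.20. Beside FBN2, SPINT2 and CFD, the smallest p belonged to PROS1, the anticoagulant protein S, with 31.7 and 24.4 against 83.4, 76.8 and 79.0 (log2 -1.52, adjusted p = 0.00252). Members chosen after their values were seen were the carriers of insulin-like growth factors IGFBP2 (-1.56), IGFBP4 (-0.90) and IGFBP7 (-0.76), the metalloproteinase inhibitors TIMP1 (-1.30) and TIMP2 (-0.94), the matrix glycoprotein SPARC (-1.55) and the protease inhibitor cystatin C (CST3, -1.31). Centring the arrays left 12 lower and 1 higher and moved the list's median to -0.02, and leaving out 1 array left 10 to 14 lower.

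Genes of the secretory pathway, through which such proteins are made, were lower in 7 of 47 members (14.9%, median -0.30). In the brightest bin of probe sets 14.8% were lower. DDOST, a subunit of the oligosaccharyltransferase that adds N-glycans, gave 848 and 768 against 1578, 1678 and 1631. The 2 nucleofection arrays lay together, far below the lipid arrays (log2 -1.01, SE 0.10, adjusted p = 0.000863). The retrieval receptor KDELR1 (log2 -1.05), the signal recognition particle subunit SRP9 (-0.94) and the coat protein SEC24C (-0.60) also fell. The count was 4 after quantile normalization, 3 after centring and 4 without any 1 of the 5 arrays. From the 5 luciferase arrays alone it was 2. Of 23 genes of the unfolded protein response, DNAJB9 (-0.94) and PDIA4 (-0.61) fell, with none higher. That share, 8.7%, was near the 5.89% lower of all genes, and both other scalings left 1 lower member.

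Genes of cholesterol and fatty acid synthesis were lower in 8 of 26 members, with none higher and a median of -0.29. FASN, fatty acid synthase, gave 552 and 520.2 against 1010.0, 983 and 1143, with no overlap (log2 -0.96, SE 0.14, adjusted p = 0.00382). SQLE, squalene epoxidase, gave 343 and 312 against 581, 649 and 552 (log2 -0.86, adjusted p = 0.0108). SCD, the stearoyl-CoA desaturase, gave 301 and 315 against 479, 525 and 612 (log2 -0.80, adjusted p = 0.0147). The sterol reductase TM7SF2 completed the 4 smallest p (log2 -1.18, adjusted p = 0.00691), and the regulator SREBF1 was also lower (-0.96). Fewer were called under both other scalings and without any 1 array: 3 lower and 1 higher after quantile normalization (median -0.10), 4 lower and 1 higher after centring (median -0.11), and 3 to 5 lower when 1 array was left out.

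Targets of the liver X receptors, which move sterols out of cells, were lower in 3 of 9 members. The transporter ABCG1 gave 43.7 and 26 against 95.1, 118 and 106 (log2 -1.65, adjusted p = 0.00628). The ubiquitin ligase MYLIP, which lowers the LDL receptor, and the phospholipid transfer protein PLTP fell by 1.11 and 1.10 on the log2 scale. The same count of 3 was found under both other scalings, and 1 without nucleofection replicate 1.

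The list of oxidative stress and metal genes held changes in both directions. Of 26 members, 7 were lower and 2 higher, with a median of -0.15 (0.03 after centring). Without nucleofection replicate 2 there were 4 lower and none higher, and without any other of the 5 arrays 5 or 6 lower and 1 higher. SLC39A4, a zinc importer, gave 106 and 90.6 against 292, 242 and 285 (log2 -1.48, adjusted p = 0.00133). The higher members were the cystine transporter SLC7A11 (log2 0.73), with 28.7 and 38.3 against 18.3, 20.1 and 13.0, and haem oxygenase HMOX1 (1.12, under the floor on the lipid arrays). EPHX1 was described above. The other 5 lower members were metallothioneins, small cysteine-rich proteins that bind zinc and copper and whose genes are switched on by metal through the factor MTF1.

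The metallothioneins moved together on these arrays. MT1H gave 512 and 562 against 900.1, 899.9 and 994 (log2 -0.79, SE 0.13, adjusted p = 0.00669). MT1F gave 199 and 203 against 479, 449.6 and 369 (log2 -1.10, adjusted p = 0.0044), and MT2A gave 2127 and 1927 against 2896, 2736 and 3167 (log2 -0.53). MT1E (-0.93) and MT1X (-0.67) fell too, and MT1G (-0.57, adjusted p = 0.186) did not pass. All are represented by probe sets of a kind that can bind several paralogs, so the 5 calls are not independent. They numbered 5 of 6 after quantile normalization, 3 after centring, and 2 to 4 when 1 array was left out, with 2 without nucleofection replicate 2 and 3 without nucleofection replicate 1 or lipid replicate 3.

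Promoters of 3 metallothionein genes are shown because these members moved together. Each is the 250 bases upstream of the RefSeq gene start in GRCh38.p14, on the plus strand of chromosome 16. MTF1 binds the metal response element, whose core was searched as TGCACNC and TGCGCNC, and matches on either strand are in capitals.
MT1H, chr16:56669564-56669813: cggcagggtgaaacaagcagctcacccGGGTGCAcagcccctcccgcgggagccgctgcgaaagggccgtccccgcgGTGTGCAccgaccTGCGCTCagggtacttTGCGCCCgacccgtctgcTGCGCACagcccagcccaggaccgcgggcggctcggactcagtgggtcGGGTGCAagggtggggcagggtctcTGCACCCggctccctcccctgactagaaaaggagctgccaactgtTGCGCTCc
MT1X, chr16:56682220-56682469: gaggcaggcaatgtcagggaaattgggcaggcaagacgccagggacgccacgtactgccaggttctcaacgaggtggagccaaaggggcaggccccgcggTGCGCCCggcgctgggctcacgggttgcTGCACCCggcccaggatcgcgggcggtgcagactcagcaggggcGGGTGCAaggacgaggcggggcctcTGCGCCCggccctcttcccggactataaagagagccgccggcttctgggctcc
MT2A, chr16:56608334-56608583: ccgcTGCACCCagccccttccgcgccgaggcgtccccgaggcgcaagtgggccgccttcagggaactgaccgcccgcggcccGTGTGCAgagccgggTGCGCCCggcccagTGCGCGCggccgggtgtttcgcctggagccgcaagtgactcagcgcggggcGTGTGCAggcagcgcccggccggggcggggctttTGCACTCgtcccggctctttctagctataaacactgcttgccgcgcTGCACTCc
The windows held 8, 4 and 7 matches. The 2 spellings differ at 1 base, so no stretch can match both at 1 position and strand. Of 35116 promoters of this length, 24.8% held at least 1 match and 1.58% at least 3. Of the 5 called metallothioneins these 3 matched the table, and MT1E and MT1F are named only.

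Surface antigens of leukocytes changed both ways, with 6 of 25 members lower and 2 higher (median -0.17). Besides CD24, the complement regulator CD59 gave 86.4 and 95.8 against 335, 286 and 276, without overlap (log2 -1.71, adjusted p = 0.0012). The chemokine receptor CXCR4 gave 78.3 and 114 against 183, 178 and 184 (log2 -0.94, adjusted p = 0.0116). PTPRC (CD45), the leukocyte phosphatase, was higher at 1 probe set, with 154 and 226 against 114, 79.6 and 91.2 (log2 0.99, adjusted p = 0.0267). Its 2 other probe sets gave -0.63 and 0.09 and did not pass. Centring left 3 lower and 2 higher and turned the list's median to 0.01, and without nucleofection replicate 1 there were 2 lower and 1 higher. The lower count was 3 without lipid replicate 1 or 2.

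Regulators and markers of blood progenitors were lower in 4 of 17 members (median -0.13, or 0.05 after centring, with 3 lower under both other scalings). SPI1 (PU.1), the master regulator of myeloid fate, gave 74.6 and 89.6 against 159, 168 and 176 (log2 -1.04, SE 0.15, adjusted p = 0.00403). EGFL7, host gene of miR-126, gave 30.3 and 4.12 against 98.3, 61.8 and 71.5 (log2 -1.62, adjusted p = 0.0044). LMO2 (-0.84) and LYL1 (-0.55), partners in 1 transcription complex, were lower as well, while CD34 gave 42.5 and 55.6 against 79.5, 75.5 and 69.9 and did not pass (adjusted p = 0.0928). Among 18 neutrophil genes, the receptor of granulocyte colony-stimulating factor CSF3R (-1.91), FUT4 (-1.09) and CEBPD (-0.73) fell. None of 13 monocyte genes passed in either direction (median -0.01).

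**Figure D3:**
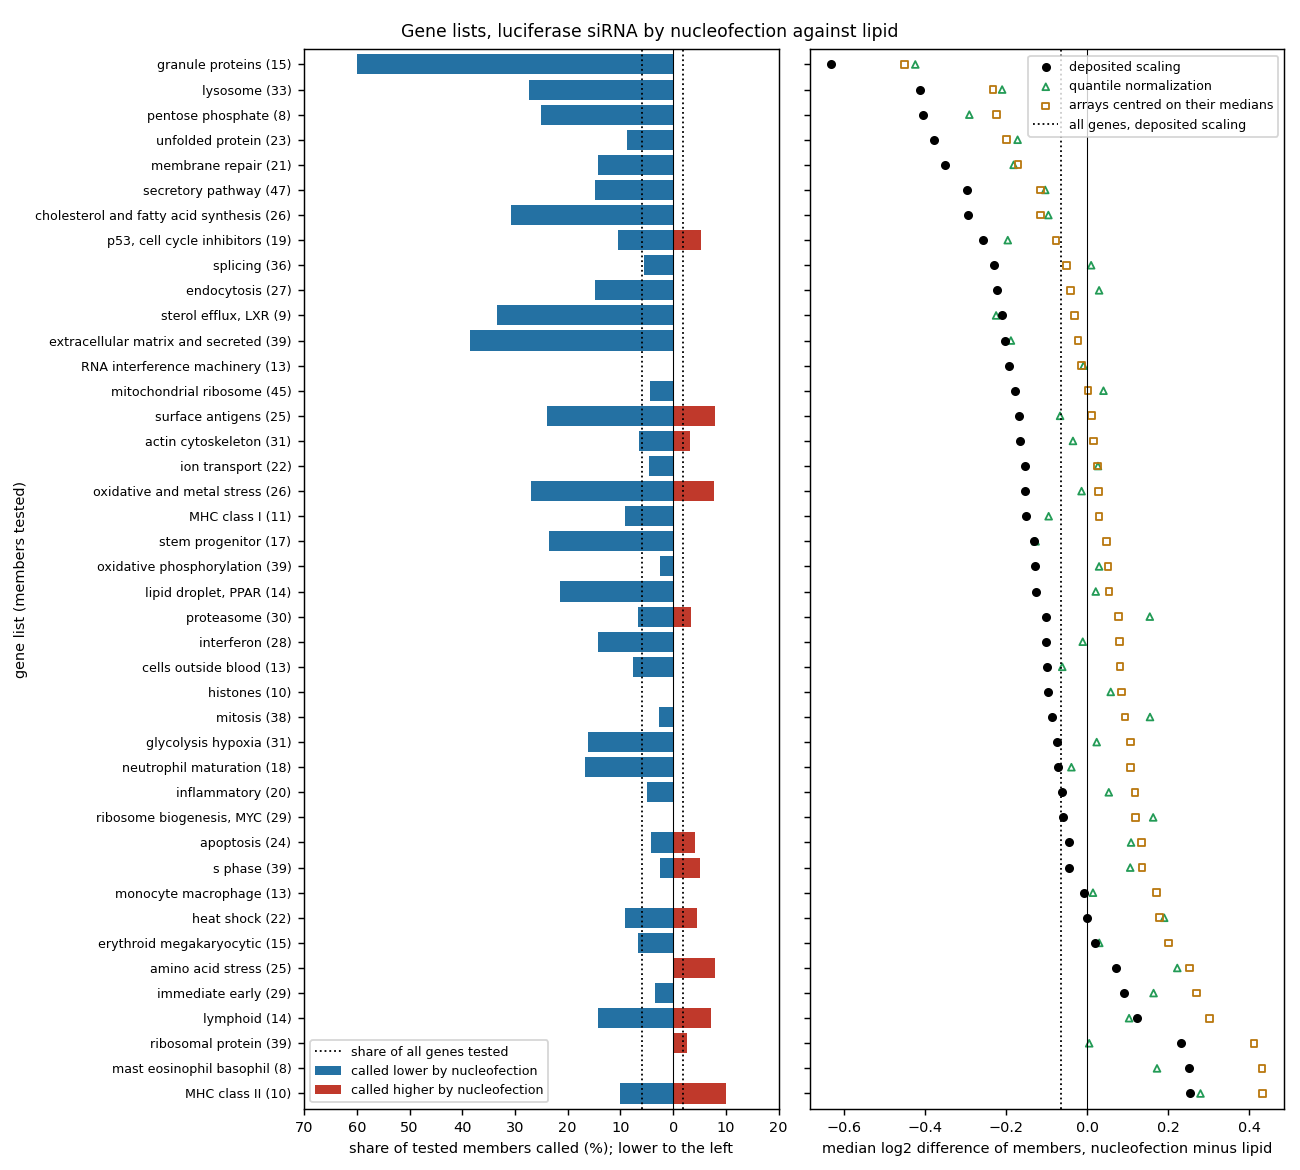
Left, the percentage of tested members of each gene list called lower or higher after nucleofection, with dotted lines at the share of all genes (5.89% lower, 1.93% higher). Right, each list's median log2 difference (nucleofection minus lipid) as deposited, after quantile normalization and after median centring; the granule list is at -0.63, -0.42 and -0.45 and the ribosomal protein list at 0.23, 0.00 and 0.41.

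Of 28 interferon-related genes 4 were lower and none higher (median -0.10, turning to 0.08 after centring). They were the antiviral membrane proteins IFITM1 (log2 -1.39), IFITM2 (-1.09) and IFITM3 (-0.72), and the regulator IRF3 (-0.65). IFITM1 signals were 126 and 83.4 against 321, 258 and 233. The list's count of lower members was 1 without nucleofection replicate 2 and 2 without lipid replicate 2 or 3, and both other scalings gave 2 lower and 1 higher. Among 29 immediate early genes only DUSP6 passed (-0.57), and among 20 inflammatory genes only CCL5 (-0.50), and both lists had no call under either other scaling. None of 13 genes of the RNA interference machinery passed (median -0.19).

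Heat shock genes numbered 1 higher and 2 lower of 22, and 2 higher and 1 lower under both other scalings. HSP90AA1, the inducible cytosolic chaperone, gave 4157 and 4462 against 2642, 2705 and 3049 (log2 0.62, adjusted p = 0.0165). The collagen chaperone SERPINH1 (-1.64) and DNAJB6 (-0.72) were lower. Of 25 amino acid response genes only SLC7A11 and the leucine transporter SLC7A5 (0.54) passed, both higher, and none did without nucleofection replicate 2. Of 24 apoptosis genes, the inhibitor BCL2 was higher, with 130.1 and 88.9 against 47.5, 58.0 and 47.8 (1.08), and the activator BIK was lower and under the floor after nucleofection (-1.68).

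Of 39 genes of S phase, POLD1 and RFC2 were higher and FEN1 lower, and of 38 genes of mitosis only CENPF passed (-0.87). None of 29 ribosome biogenesis genes and none of 10 histone genes passed. Cytosolic ribosomal proteins had 1 of 39 members called, RPL24, with 6336 and 6074 against 3982, 4559.9 and 4652 (log2 0.50, adjusted p = 0.0249). Their median was 0.23, and in 24 of the 39 the nucleofection arrays lay above all lipid arrays, against 14.9% of all probe sets tested. The median was 0.00 after quantile normalization and 0.41 after centring. No member was called after quantile normalization or when any 1 array other than nucleofection replicate 2 was left out. Of 8 pentose phosphate genes, TKT and PGD fell, and the list's count was 2 under both other scalings as well. TKT, transketolase, gave 838 and 969 against 1988, 1812 and 1920.5 (log2 -1.08, adjusted p = 0.00232), and PGD fell by 0.90 on the log2 scale. The list of glycolysis and hypoxia genes had 5 of 31 members lower (median -0.07), among them PDK1, NDRG1, VEGFA and PKM (-0.66 for PKM). The count of that list was 2 under both other scalings, 2 without nucleofection replicate 2 and 3 without lipid replicate 3. From the 5 luciferase arrays alone it was 0 of 30.

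Markers of other cell types were described by their summed signal and their medians. The 19 lymphoid genes, 7 of them under the floor on all 5 arrays, summed to 557 to 610 after nucleofection and 809 to 897 with lipid, while their median difference was 0.12. CD4 alone gave 209 and 222 against 451, 481 and 616.4 (log2 -1.25), CD8A was lower (-1.37) and CD3D higher (1.07). The 17 erythroid and megakaryocytic genes, 3 of them under the floor on all 5, summed to 2098 to 2125 against 2765 to 2949. Their median difference was 0.02. The transferrin receptor TFRC alone gave 1367 and 1408 against 2093, 2089 and 2017 (-0.57), and no other member passed. The 20 genes of tissues outside blood, again with 7 under the floor, summed to 515 to 535 against 629 to 675 (median -0.10), and of these EPCAM alone fell, with 84.3 and 94.5 against 194, 197 and 239.2. The 10 mast cell, eosinophil and basophil genes summed to 179 to 217 against 114 to 144 (median 0.25), with no member passing, and the sums of the 16 monocyte genes overlapped, at 1385 to 1412 against 1312 to 1496. Their part in the other differences was not tested.

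The AML1-ETO siRNA was delivered by the same methods, and its 6 arrays share none with the luciferase arrays. There 1561 probe sets differed between nucleofection and lipid (9.79%), 1270 lower (7.97%) and 291 higher (1.83%). A total of 514 probe sets were called with both siRNAs, which is 38.3% of the luciferase calls and 32.9% of the AML1-ETO calls. Of these, 505 had the same direction, 438 lower and 67 higher. Of the 989 probe sets lower with the luciferase siRNA, 903 (91.3%) had a difference below 0 with the AML1-ETO siRNA, against 62.0% of all tested. Of the 352 higher, 263 (74.7%) were above 0, against 35.9%. Across the 15938 probe sets, which are not independent replicates, the 2 delivery differences had r = 0.49 and rho = 0.47.

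Individual genes varied in how far the 2 siRNAs matched. FBN2 fell by 2.04 on the log2 scale with the AML1-ETO siRNA, close to the 2.24 with luciferase. The metallothioneins fell there too, MT1H by 1.68 and MT1F by 1.20, and FASN fell by 1.81. RAD23B and TOP1 were also higher after nucleofection with the AML1-ETO siRNA (log2 1.48 and 1.19, adjusted p = 0.000442 and 0.0157). AZU1 (-0.55, adjusted p = 0.0722) and PRTN3 (-0.49, adjusted p = 0.0602) did not pass there. Over the 9453 genes, 10.1% were called there, 8.65% lower and 1.46% higher. The granule list gave 3 lower and 3 higher of 15 (median -0.13), and the cholesterol list 7 lower of 26 (median -0.32).

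The difference between the delivery effects was tested for each probe set, and 9 passed (0.0565%; 1 higher, 0.00627%, and 8 lower, 0.0502%; 1707 had an unadjusted p under 0.05). The largest was CTSG: it fell with the luciferase siRNA and rose with the AML1-ETO siRNA, from 3154, 2864 and 2982 with lipid to 5903, 5550.0 and 5705 with nucleofection. The AML1-ETO arrays lay above every luciferase array in both methods, and the difference of the 2 delivery effects was -2.44 (adjusted p = 0.00396). CTSG kept its call in 27 of 28 alternatives. The count of 9 was unstable, ranging from 1 to 94 when 1 array was left out, with 94 without luciferase nucleofection replicate 1, 34 without luciferase nucleofection replicate 2, 22 without AML1-ETO lipid replicate 3, and 1 to 3 without any other.

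**Figure D4:**
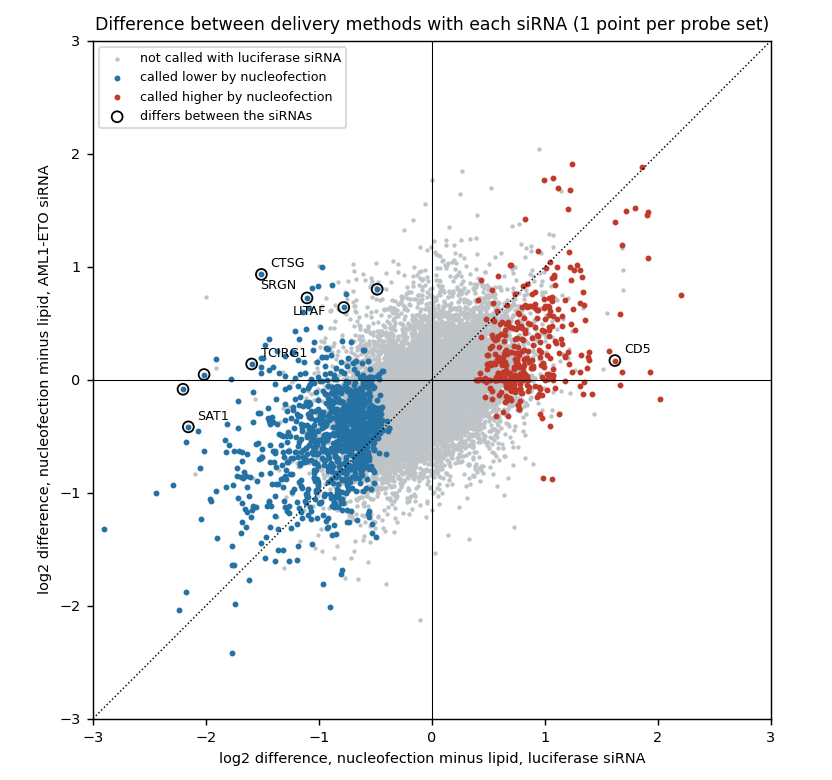
Log2 difference between nucleofection and lipid for each of the 15938 probe sets tested, with the luciferase siRNA (horizontal) against the AML1-ETO siRNA (vertical); colours mark probe sets called with the luciferase siRNA. Most lower probe sets lie below 0 on both axes (91.3% of 989), and the 9 probe sets whose effect differed between siRNAs are circled.

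Untransfected cells and nucleofection without siRNA place the 2 methods against cells left alone. The following comparisons share the luciferase arrays with those above, and their values are given side by side. Against untransfected cells, luciferase nucleofection gave 843 called probe sets (5.29%; 303 higher, 1.9%, and 540 lower, 3.39%) and luciferase lipid gave 1 (0.00627%; 570 with an unadjusted p under 0.05, limma). The count of 843 was 71 and 165 without untransfected replicates 1 and 3, and 626 and 513 without nucleofection replicates 1 and 2. FBN2 was at 158 and 125 in untransfected cells, RAD23B at 62.4 and 60.5, CTSG at 1731 and 1121, and DDOST at 1627 and 1584. In all 4 the untransfected values were on the side of the lipid arrays.

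The single call between lipid and untransfected cells was ATN1 (atrophin 1), chosen after its values were seen. It gave 59.3, 69.2 and 58.7 with lipid and 16.7 and 18 in untransfected cells, at least 3.11-fold higher (adjusted p = 0.00148). It also gave 12.4 and 7.33 with luciferase nucleofection and 3.46 with nucleofection without siRNA. The 2 further ATN1 probe sets did not pass (0.11 and 0.07). The call was absent without untransfected replicate 1, and 4 probe sets passed without untransfected replicate 3.

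The array nucleofected without siRNA is single, so its differences carry no test. Its difference from untransfected cells uses none of the 5 luciferase arrays. Of the 989 probe sets lower after luciferase nucleofection, 940 (95.0%) were lower on that array than in untransfected cells, against 53.5% of all tested, with a median of -0.66 beside -0.04. Of the 352 higher, 250 (71.0%) were higher, against 37.8%, with a median of 0.36. FBN2 was at 41.3 there, AZU1 at 333, CTSG at 537, DDOST at 868, RAD23B at 121 and RPL37A at 1238. Each of these lay on the side of the luciferase nucleofection arrays.

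**Figure D5:**
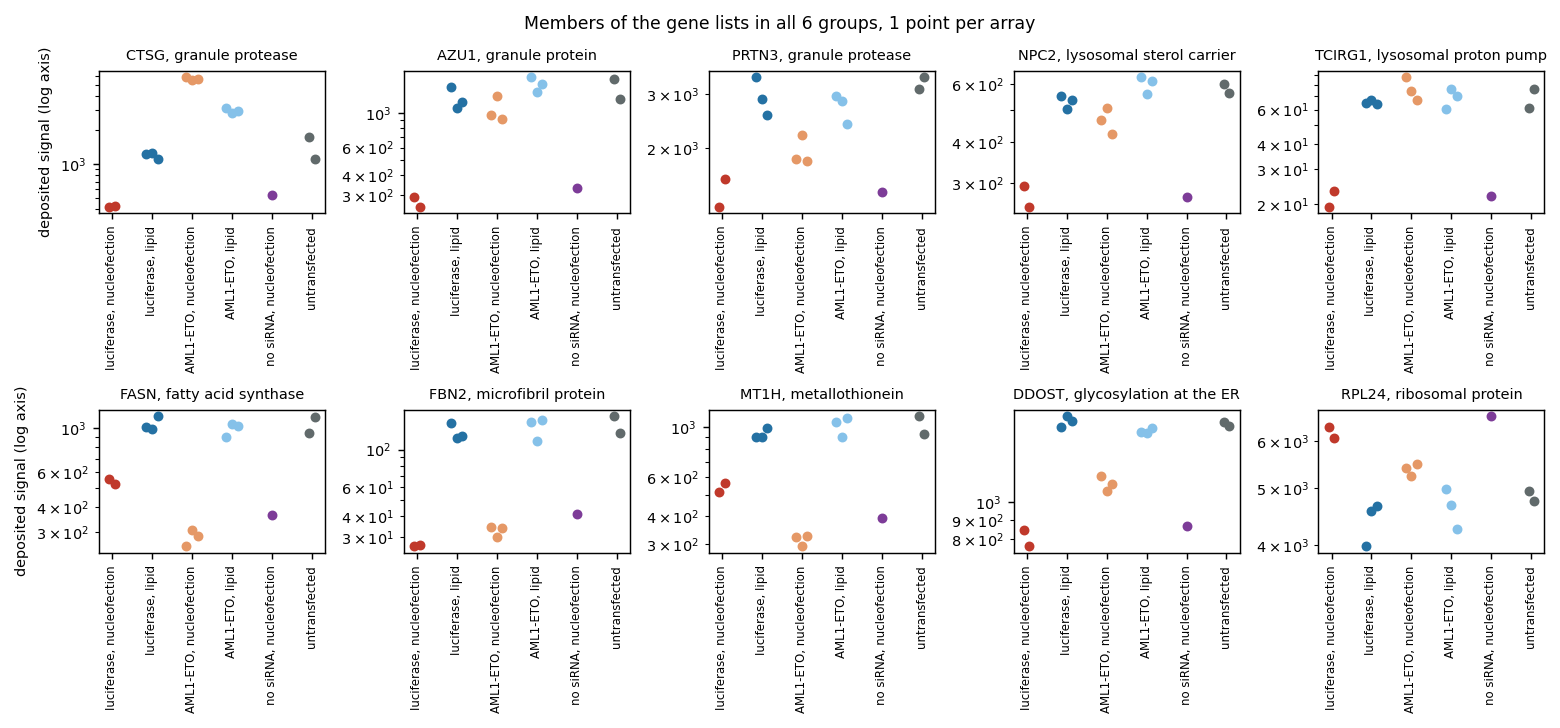
MAS5 signal (log axis) of 10 genes from the lists on all 14 arrays, by the 6 groups; each point is 1 array. CTSG lies at 419 and 423 after luciferase nucleofection and at 5550.0 to 5903 after AML1-ETO nucleofection, while FBN2 is low in all 3 nucleofected groups and DDOST is lowest after luciferase nucleofection.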

How the data were processed

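RNA was labelled from a T7-linked oligo-dT primer and hybridised to Affymetrix arrays, 1 per sample. The authors deposited MAS5 signal, a linear intensity per probe set, per the submitters' processing notes; its mean was equal on all arrays, and the MAS5 version was not given in the sources used here. Signals were floored at 20 and log2-transformed. Probe sets above 20 on at least 2 of 14 arrays were tested (15938; 6277 were not, and 68 controls were left out). Means of 6 groups over 14 arrays were fitted with limma 3.58.1 in R 4.3.3 (lmFit, eBayes), and p-values were adjusted by Benjamini-Hochberg over all probe sets tested, at 0.05. Array number limits the precision. Symbols came from the platform annotation (19065 probe sets with 1 symbol, 1043 with several, 2107 with none). Named genes were the 12 with the largest called change each way and no overlap between the arrays, 1 probe set per gene, the 5 smallest p for the difference between siRNAs, and in each list the 4 called genes with the smallest p. The members and lists were chosen with earlier results of these data known. The fit was tried on simulated data of this comparison with 15938 probe sets and independent noise. It recovered 72% of 100 probe sets changed by a log2 of 1 and 2% of 100 changed by 0.5. Changes were placed only in bright probe sets, so recovery among dim ones was not tested. Promoters were taken from RefSeq (GRCh38.p14). Features of the encoded proteins were not used here. The arrays were not paired by replicate number. Alternatives covered scaling, floor, filter, probe choice, covariates and left-out arrays.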

Additional observations from a re-analysis of the deposited data

Results flagged for a closer look

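The delivery effect, nucleofection minus lipid on the log2 scale, differed between the luciferase and the AML1-ETO siRNA at 9 probe sets by a test of the difference itself (limma, Benjamini-Hochberg adjusted over all probe sets). Each value below is the effect with luciferase minus the effect with AML1-ETO.

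CTSG differed by -2.44, falling by 1.51 with luciferase and rising by 0.93 with AML1-ETO. SRGN, the proteoglycan of secretory granules, differed by -1.83, from luciferase signals of 474 and 509 by nucleofection and 827, 1174 and 1221 by lipid, and AML1-ETO signals of 4366, 3848 and 3652 against 2397, 2369 and 2400.0. The 2 genes were thus lower after nucleofection with 1 siRNA and higher with the other. LITAF, a membrane protein of the endosome, differed by -1.42, with effects of -0.78 and 0.64, and a probe set without a single symbol by -1.29, with effects of -0.49 and 0.80. The call of LITAF was lost in 19 of 26 alternatives, that of the probe set without a single symbol in 13 of 26. SRGN lost its call in 10 of 27 and CTSG in 1 of 28.

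At the other 5 probe sets the effect with the AML1-ETO siRNA did not pass. The 2 CD24 probe sets differed by -2.06 and -2.12, with AML1-ETO effects of 0.05 and -0.09. SAT1 differed by -1.74 and TCIRG1 by -1.74 (effects of -0.42 and 0.14 with AML1-ETO). CD5 differed by 1.45, with an effect of 0.17 with AML1-ETO and lipid values under the floor. The call was lost in 14 of 27 alternatives for CD5, and in 12 of 26 and 11 of 27 for the CD24 probe sets. SAT1 lost it in 12 of 26 and TCIRG1 in 11 of 27, with values as small as -0.06 and -0.14. On the array nucleofected without siRNA, CTSG was at 537, SAT1 at 3.58, TCIRG1 at 21.8 and CD5 at 33.4.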

How the results depend on the processing

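None of the 24 genes with the largest changes, nor the 9 probe sets that differed between siRNAs, changed direction under the alternatives run, while the split of directions and the medians of some lists moved with the scaling as reported above. For the 1341 luciferase calls, 9 alternatives (among them quantile normalization, centring, other floors and no filter) gave 904 to 1495. The count was 716 with 1 probe set per gene, 490 without the probe sets that transcripts or genes share (names ending _s_at or _x_at), 471 with the scale factor as a covariate, 369 from the 5 arrays alone, 566 to 817 with 1 array left out, and 0 with the GAPDH ratio, 18S or Alu signal (limma, unadjusted counts in the report). The 18S and Alu covariates and these settings for the comparisons with untransfected cells were chosen after seeing the data. Whether replicate numbers pair the arrays cannot be told here. With 2 nucleofection arrays, the same-number correlations (-0.01 and -0.04) only mirror the different-number ones (0.01 and 0.04). With the replicate number as a block, the counts were 723 for luciferase delivery, 1101 for AML1-ETO delivery and 1 for the difference. Against untransfected cells they were 233 for luciferase nucleofection and 1 for lipid. Under the same settings the 1561 AML1-ETO calls became 959 (quantile), 1001 (centred), 933 (floor 10), 990 (1 per gene), 494 (without _s_at and _x_at), 504 (scale factor), 361 (GAPDH ratio), 5 (18S), 10 (Alu), 509 (own arrays) and 653 to 1354 (1 array left out). The 9 differences between siRNAs became 34 (quantile), 20 (centred), 30 (floor 10), 29 (floor 64), 79 (no filter), 5 (1 per gene), 3 (without _s_at and _x_at), 37 (intensity trend), 0 (GAPDH ratio; 1685 with an unadjusted p under 0.05, limma), 26 (Alu) and 1 to 94 (1 array left out). The 843 calls of luciferase nucleofection against untransfected cells became 555 (floor 10), 492 (1 per gene), 313 (without _s_at and _x_at), 187 (scale factor), 0 (GAPDH ratio; 1965 unadjusted, limma), 3 (18S), 57 (Alu), 0 (own arrays; 2793 unadjusted) and 71 to 626. The 1 call of lipid against untransfected cells became 2 (floor 10), 0 (floor 64; 314 unadjusted, limma), 0 (log2 of signal plus 16; 562), 0 (1 per gene; 336), 0 (own arrays; 701) and 0 to 4. The causes were not tested. Over the 24 named genes, 382 of 498 alternative values kept their call. Dim signals near the floor limit the folds, and 157 of the 1341 are bounds.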

Other observations

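Probe sets for 1 gene did not always match. Of 2964 genes with at least 2 tested probe sets, 581 had a probe set called between the methods with the luciferase siRNA, and in 394 of these (67.8%) all probe sets lay on the same side of 0, against 54.5% of all such genes. In 100 of the 581 at least 2 probe sets were called, and in 40 all were. 7 genes had calls in both directions: ATF5, CAMKK2, CDKN2A, G3BP1, GADD45GIP1, RASSF4 and YME1L1, chosen after their values were seen. ATF5, a stress-responsive transcription factor, gave -0.97 at 1 probe set and 0.69 at another, with adjusted p = 0.0456 and 0.0138 (limma). Probe sets designed for a single transcript, 7919 of those tested, held 184 higher and 375 lower. Those shared by several transcripts or genes, 6082, held 108 and 469, and those that can cross-react, 1912, held 60 and 144.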
